A study of Mus musculus with 5 samples.

Results

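Troglitazone alone was compared with vehicle across all genes on liver arrays from mice killed 6 hr after dosing. Of the 36870 gene names on the arrays, 21317 were well above background on the TGZ array or the vehicle array, by the scanner software's call, and these made up the comparison. The mice were female BALB/c animals, 6 weeks old. The TGZ group received troglitazone (TGZ) at 300 mg/kg by intraperitoneal injection and the vehicle group received the vehicle. The series also holds a rosiglitazone (RGZ) group at 300 mg/kg and groups given TGZ or RGZ at the same doses with BSO (buthionine sulfoximine, which blocks glutathione synthesis) at 700 mg/kg, and their values are set beside the comparison where they bear on it. No labelled allele, transgene or second agent is shared by the TGZ and vehicle groups. Each group was 1 pool of liver RNA from 6 animals on 1 array, so a group had no replicate and no difference was tested. Precision is limited by this number of arrays.

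Troglitazone and rosiglitazone are thiazolidinediones, ligands of the nuclear receptor PPAR gamma, which in fat cells switches on genes of lipid uptake and storage. Troglitazone was withdrawn as a diabetes drug because of liver injury, and the study's title concerns that injury. The liver answers injury and circulating cytokines with an acute phase response, in which hepatocytes, its main cell type, make secreted defence proteins, and it adjusts glucose and lipid synthesis to insulin through the factors SREBP and FOXO1.

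A scaled signal of 100 is the 75th percentile of an array's probes, and a difference is that of the log2 scaled signals, TGZ minus vehicle. The interval after a fold is the 95% interval from the scanner software's own error per spot. It leaves out differences between animals, pools and labelling reactions. A difference of 2-fold or more was counted as higher or lower. Where a gene was well above background on 1 of the arrays only, the lowest signal called well above background on the dim array stood in for it, which makes the difference a bound ("at least"). Signals of different probes cannot be set against each other, so levels are compared only between arrays. Each gene is read from its brightest probe. Where the mean over its probes moved a 2-fold difference by more than 1.5 times, that mean follows as the probe mean, on the log2 scale.

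Of the genes with a value, 2147 (10.1%) were at least 2-fold higher with TGZ and 2020 (9.48%) at least 2-fold lower. Each count in a gene list below is to be read beside these shares. At 4-fold or more the balance was less even, with 646 higher (3.03%) and 434 lower (2.04%). The middle of the distribution stayed near 0. Over the 18989 genes measured on both arrays the median difference was 0.03 on the log2 scale, and the range from the 25th to the 75th percentile ran from -0.38 to 0.39. A typical measurement interval spans a factor of 1.32 either way. Of 1054 measured genes past 2-fold with more than 1 measured probe, 915 had every measured probe on the same side of 0. Among genes under the 25th percentile of mean signal 12.5% were higher and 10.1% lower, against 7.66% and 4.79% above the 75th.

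**Figure D1:**
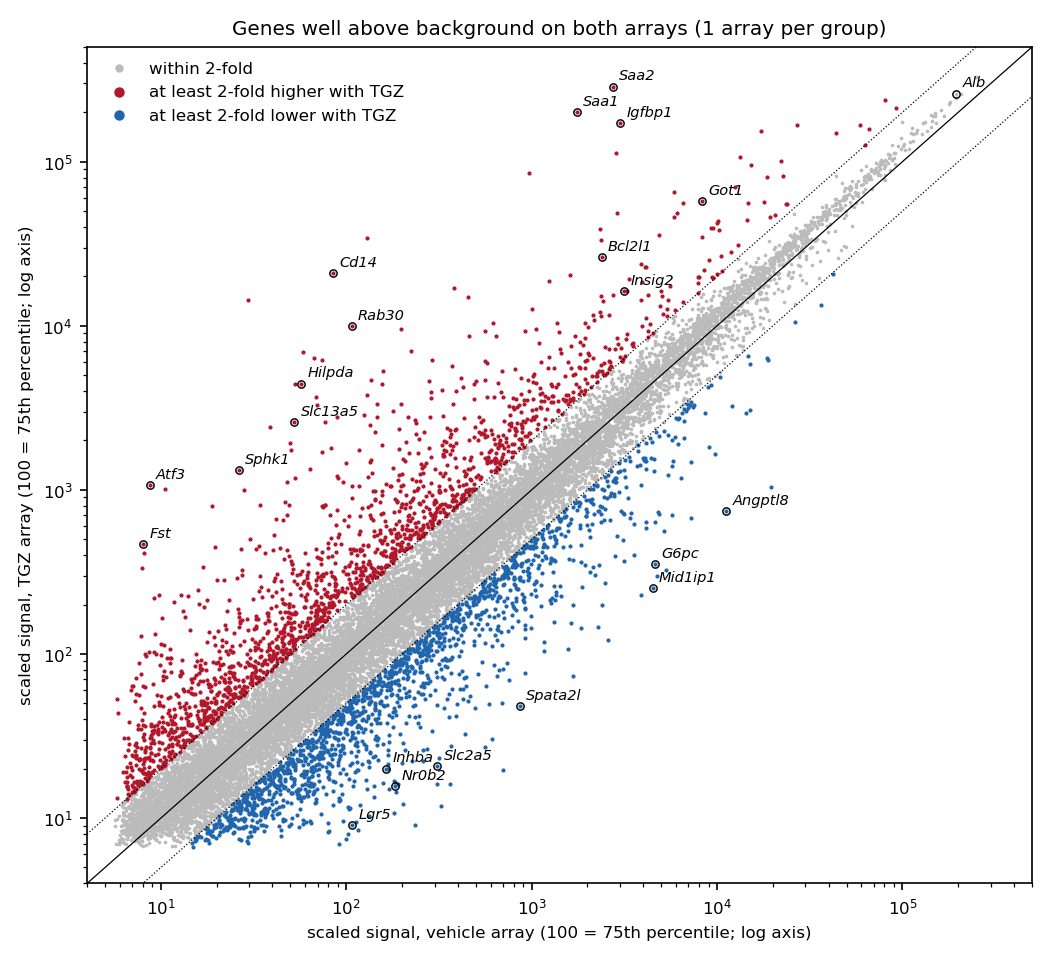
Scaled signal on the vehicle array (x axis) and the TGZ array (y axis), both log axes, for the 18989 genes measured on both arrays; each point is 1 gene and the dotted lines mark 2-fold. Points above the upper line (red) reach farther from the diagonal than those below the lower line (blue), with Hilpda 77.4-fold higher and Mid1ip1 17.8-fold lower, while Alb lies close to the diagonal.

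Albumin (Alb) and Ttr, the defining secreted proteins of hepatocytes, had signals of 195138 and 80463 with vehicle and 259539.9 and 76822 with TGZ. Both were well above background on both arrays. Over 12 hepatocyte markers the median was 0.37 on the log2 scale, with 2 past 2-fold, both higher. The share of the 56605 probes called well above background ran from 51.9% to 55.1% over the arrays. The 75th percentile of the unscaled signal was 141.5 on the TGZ array and 184.5 on the vehicle array. Scaling to the added spike-in RNA in its place moved every difference by -0.46 on the log2 scale, so that a gene less than 2.74-fold higher here is below 2-fold there, and a list median between 0 and 0.46 is below 0 there. Saa1 and Saa2 on the TGZ array (179982) and on the RGZ array (123834), and Alb on the TGZ and vehicle (134180) arrays, were brighter than the brightest spike-in RNA, whose signal is in parentheses. Whether such signals stayed proportional to RNA is not shown.

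Beside the genes of inflammation, the largest measured differences included genes of lipid storage, membrane traffic and lipid signalling. Hilpda, a lipid droplet protein that inhibits the triglyceride lipase ATGL, had a signal of 57.3 with vehicle and 4438 with TGZ, 77.4-fold higher (interval 58.5 to 103). Its signal was 3378 with BSO plus TGZ, 79 with RGZ and 96.4 with BSO plus RGZ, so both arrays with TGZ were high and the other 3 low. Rab30, a small GTPase of the Golgi, went from 107 to 9929.6, 92.7-fold higher (70.2 to 122). Fst, which encodes follistatin, the secreted antagonist of activins, was at 8.01 with vehicle and 468 with TGZ, 58.5-fold higher (38.4 to 88.9). Sphk1, the kinase that makes sphingosine 1-phosphate, was at 26.3 and 1315, 50-fold higher (37.3 to 67.1), and at 26.1 with RGZ. Slc13a5, the plasma membrane citrate carrier, was 49.1-fold higher (37.1 to 65.1), with a mean over its probes of 3.87 on the log2 scale. Pip5k1a, a phosphoinositide kinase, was 39.6-fold higher by its brightest probe, but 2.03 on the log2 scale as the mean over its probes. Its 3 measured probes ran from 0.02 to 5.31, so whether the gene differed depends on the probe. The brightest was at 2866 with vehicle and 24353 with RGZ. Akr1b7, an aldo-keto reductase, was 34.6-fold higher (26.1 to 45.9).

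Several genes were well above background with TGZ and not with vehicle. Hcar2, the receptor for niacin and the ketone body beta-hydroxybutyrate, was at 263 with TGZ and at least 47.1-fold higher than with vehicle. Slc7a6, an exchanger of cationic and neutral amino acids, was at 249 and at least 44.6-fold higher (probe mean 3.22). Slc10a6, a carrier of sulfated steroids, was at 106 and at least 18.9-fold higher, and Adcy1, an adenylate cyclase, at least 19.4-fold (probe mean 3.33). Cidea, a lipid droplet protein of brown fat, was at 76.1 and at least 13.6-fold higher.

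The largest measured differences in the other direction held several genes of lipid and sugar metabolism. Mid1ip1, which promotes polymerisation and activity of acetyl-CoA carboxylase, was at 4498 with vehicle and 253 with TGZ, 17.8-fold lower (interval 13.5 to 23.5). Angptl8, an insulin-induced secreted inhibitor of lipoprotein lipase, was at 11247 and 739, 15.2-fold lower (11.5 to 20.1). Its signal was 3962 with BSO plus TGZ, 15235 with RGZ and 22119 with BSO plus RGZ, so the TGZ array was the lowest of the 5. Slc2a5, the fructose transporter, was at 309.6 and 20.8, 14.9-fold lower (10.8 to 20.4). Spata2l was 17.9-fold lower (13.4 to 23.8) and Apol7a, of the apolipoprotein L family, 16.9-fold (12.8 to 22.4). Rnf152, a ubiquitin ligase of the lysosome, was 13.8-fold lower (10.4 to 18.4) and Dapk2, a calmodulin-regulated kinase, 13.4-fold (9.98 to 18). Gas1, a cell surface protein of growth arrest and hedgehog signalling, was 13.7-fold lower (8.46 to 22.1). Hsd3b5 was at 168 with vehicle, not well above background with TGZ, and at least 25.4-fold lower. The transcriptional cofactor gene Mn1 was at least 18-fold lower and the potassium channel gene Kcnk5 at least 15.3-fold.

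**Figure D2:**
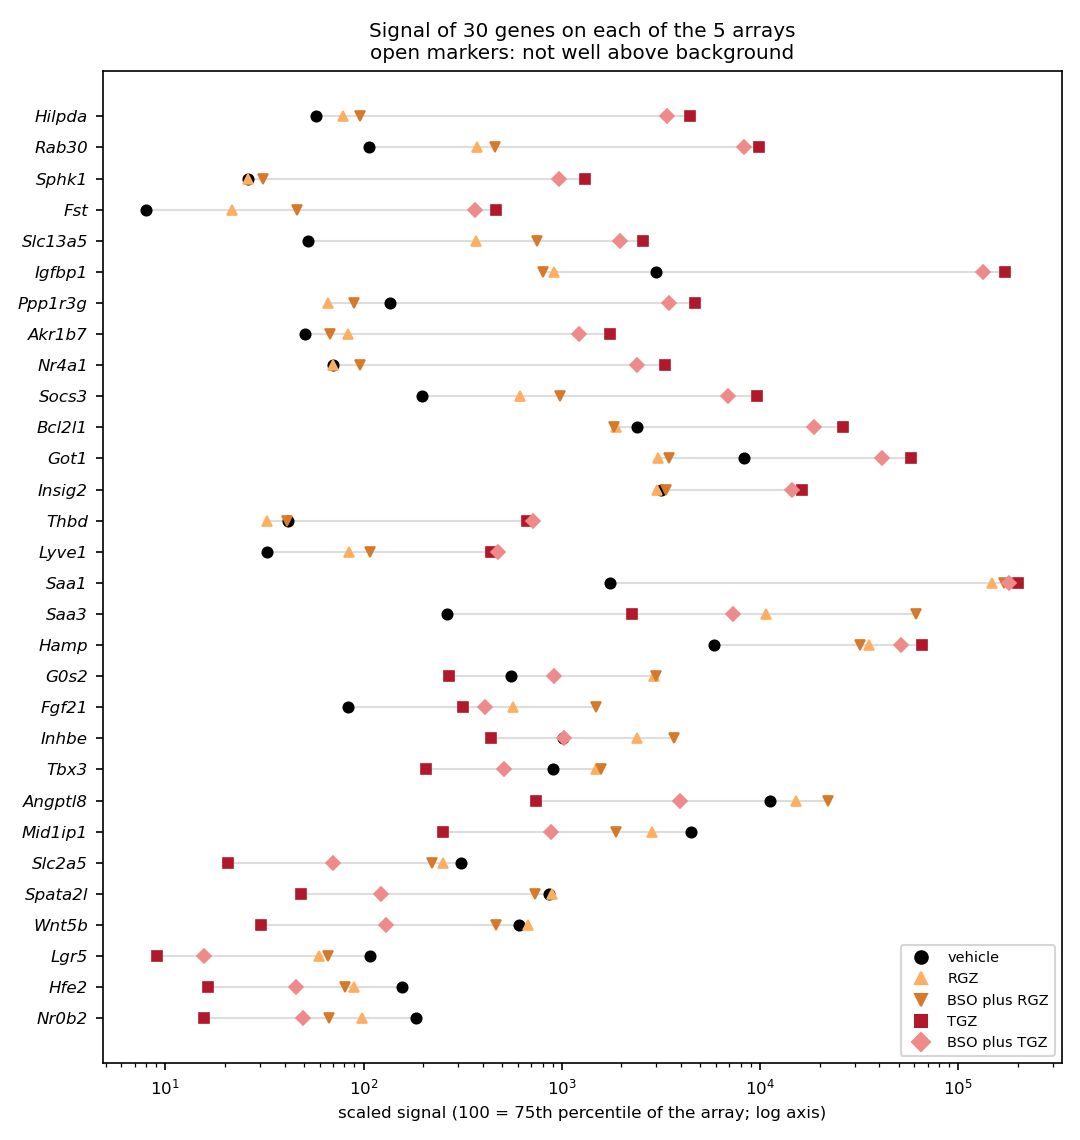
Scaled signal (log axis) of 30 genes on each of the 5 arrays, 1 marker per array, open where the gene was not well above background; the genes were chosen after their values were seen. The squares (TGZ) and diamonds (BSO plus TGZ) lie to the right of the other markers for Hilpda, Sphk1 and Nr4a1, whereas for Saa1 the other 2 treated arrays lie beside them, and for Angptl8 and Mid1ip1 the TGZ array is lowest.

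Transcription factors of the immediate response to stress and growth signals were higher in most of their families. AP-1, a dimer of FOS and JUN family proteins, binds the letters TGACTCA, and C/EBP and ATF factors pair on related sites. Of 17 genes of the AP-1 family 10 were higher and none lower, against 10.1% of all genes, with a median of 1.96. Fos was at 30.4 with vehicle and 499 with TGZ, 16.4-fold higher (interval 12.3 to 21.9). Maff, a small MAF protein that dimerises with CNC factors such as NRF2, was at 117 and 1760.2, 15-fold higher (11.4 to 19.8). Jun was 11.6-fold higher (8.78 to 15.3), Fosl2 11.2-fold (8.43 to 15; probe mean 2.76) and Junb 5.63-fold (4.27 to 7.43). Fosb was at 16.9 and 24, 1.42-fold higher with an interval (0.995 to 2.02) that includes 1. In the EGR, NR4A and IER families 9 of 12 genes were higher and none was lower (median 1.38). The orphan nuclear receptor gene Nr4a1 was at 69.8 with vehicle, 3310.0 with TGZ, 2395 with BSO plus TGZ and 69.8 with RGZ. Egr1 was 4.74-fold higher (3.59 to 6.25).

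Other families of signalling regulators held genes both higher and lower. Of 13 Kruppel-like factors 5 were higher and 1 lower (median 0.83), led by Klf6 at 13.7-fold (10.4 to 18) and Klf4 at 5.75-fold (4.34 to 7.6). Klf15, a factor of amino acid and glucose metabolism, was at 2961 and 2269, within measurement error. The growth factor-induced gene Myc was at 9.17 with vehicle and 102 with TGZ, 11.2-fold higher (7.69 to 16.2; probe mean 2.8; 1.84 with normexp). Of 12 genes of the MYC, MAX and MXD network 2 were higher and 2 lower (16.7% each, beside 10.1% and 9.48% over all genes). The lower ones were Mycn at least 7.17-fold and Mycl at least 4.56-fold (-0.83 and -0.54 on the log2 scale with normexp). Of 18 phosphatases of the DUSP family, only some of which switch off MAP kinases, 7 were higher and 3 lower (38.9% and 16.7%, median 0.49). Dusp8 was 22.8-fold higher (16.9 to 30.8; probe mean 5.49) and Dusp5, which acts on nuclear ERK, 12.7-fold (9.19 to 17.6), while Dusp12 was 3.67-fold lower (2.78 to 4.84). Of 12 genes of the EGF receptor axis 6 were higher and 1 lower (median 0.23). Egfr itself was 4.57-fold higher (3.46 to 6.02; probe mean 1.46), its ligand gene Hbegf 4.29-fold (3.2 to 5.76) and the ERBB4 ligand gene Nrg4 5.97-fold (4.52 to 7.88), while the co-receptor gene Erbb3 was 3.26-fold lower (2.47 to 4.3).

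Promoters of 6 of the most strongly higher genes are shown because each holds a searched motif before the RefSeq start, read on either strand. Each stretch begins 20 bases before the motif and ends at the last base before the start, on the gene's strand, in lower case with the motif in capitals (RefSeq, build GRCm38.p6).
Atf3, chr1:191183334-191183463, minus strand, C/EBP-ATF letters 110 bases before the start: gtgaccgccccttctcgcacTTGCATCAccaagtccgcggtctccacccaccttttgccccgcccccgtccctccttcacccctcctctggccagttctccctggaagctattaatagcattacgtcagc
Btg2, chr1:134079156-134079341, minus strand, the cyclic AMP response element 166 bases before the start: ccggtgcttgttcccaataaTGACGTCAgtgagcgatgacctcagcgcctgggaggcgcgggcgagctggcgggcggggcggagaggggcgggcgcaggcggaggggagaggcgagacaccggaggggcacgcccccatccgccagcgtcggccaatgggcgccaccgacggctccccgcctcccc
Il1rn, chr2:24336699-24336859, plus strand, AP-1 letters 141 bases before the start: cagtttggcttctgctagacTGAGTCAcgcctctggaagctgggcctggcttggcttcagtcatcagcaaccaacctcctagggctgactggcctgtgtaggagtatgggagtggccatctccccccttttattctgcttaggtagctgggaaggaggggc
Cidec, chr6:113434765-113434880, minus strand, AP-1 letters 96 bases before the start: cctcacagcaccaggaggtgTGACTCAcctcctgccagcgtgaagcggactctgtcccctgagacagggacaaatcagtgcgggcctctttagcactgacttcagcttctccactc
Sphk1, chr11:116531049-116531099, plus strand, TATA box 31 bases before the start: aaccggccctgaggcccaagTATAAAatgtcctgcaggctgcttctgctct
Cxcl1, chr5:90891154-90891244, plus strand, NF-kappaB letters 71 bases before the start: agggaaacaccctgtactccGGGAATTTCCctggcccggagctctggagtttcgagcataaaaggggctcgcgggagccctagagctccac
These genes were 122-fold, 83.6-fold, 62.5-fold, 53.6-fold, 50-fold and 44.3-fold higher with TGZ, in that order. A match is a description of the letters in the window and not a site shown to be bound.

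The same letters were counted in RefSeq promoter windows of 300 bases, from 250 before to 50 after a start, on both strands. Windows on chromosome 18 were left out of all these counts. Of 15944 windows of 12607 genes with a value, 533 belonged to genes at least 4-fold higher and 422 to genes at least 4-fold lower, and a gene with several starts has several windows that can overlap. The AP-1 letters TGACTCA stood in 4.38% of all windows of genes with a value, 6% of those at least 4-fold higher and 4.27% of those at least 4-fold lower. The C/EBP-ATF letters TGATGCAA stood in 0.746%, 1.69% and 0.474%, in the same order, the last 2 shares being 9 and 2 windows. For the NF-kappaB motif the shares were 0.458%, 1.31% and 0.474%, the last 2 being 7 and 2 windows. The letters TATAAA on the gene's strand 20 to 40 bases before the start, where a TATA box lies, stood in 1.86% of all, 4.88% of those at least 4-fold higher and 1.42% of those at least 4-fold lower. The cyclic AMP response element TGACGTCA stood in 2.68%, 2.81% and 0.474%, the last being 2 windows. Other searched motifs went either way. The SREBP motif stood in 0.596%, 1.31% (7 windows) and 0.948% (4 windows). Shares were 0.564%, 0.375% and 0.474% for the heat shock motif and 54.1%, 48.6% and 48.8% for the GC box. No share was tested. Over all counted windows, of genes with or without a value, the shares were 5.2% for AP-1, 0.895% for C/EBP-ATF and 0.411% for NF-kappaB. They were 1.99% for the placed TATAAA and 1.79% for the cyclic AMP response element. Protein-coding genes at least 4-fold higher spanned a median of 17.0 kb in RefSeq, those at least 4-fold lower 22.5 kb and all with a value 21.5 kb.

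Genes of cytokine signalling were higher from receptors to feedback inhibitors. Interleukin 6 type cytokines act through the shared receptor chain encoded by Il6st and the factor STAT3, and SOCS proteins shut the pathway off. Of 23 genes of this pathway 13 were higher and none lower (median 1.33). Il6 was at 23.6 with TGZ, not well above background with vehicle, and at least 4.22-fold higher, but 0.78 on the log2 scale after normexp correction of the background. The receptor gene Osmr was at 61.4 and 303, 4.93-fold higher (interval 3.73 to 6.53, with a probe mean of 3.01). Il6ra was 2.71-fold higher (2.05 to 3.57, but below 2-fold with spike-in scaling). By its brightest probe Il6st was 1.5-fold higher (1.14 to 1.98). The measured probes of Il6st ran from 0.58 to 1.26 on the log2 scale, so whether it passed 2-fold depends on the probe. Stat3 was 3.64-fold higher (2.76 to 4.8). Among feedback inhibitors Socs1 was at 16.9 and 339, 20.1-fold higher (14.6 to 27.7), Socs2 19-fold (14.4 to 25.1) and Cish 4.72-fold (3.58 to 6.23). Socs2 and Cish are also targets of growth hormone through STAT5. The survival kinase gene Pim3 was 7.24-fold higher (5.48 to 9.55).

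Of 13 genes of the interleukin 1 axis 4 were higher and none lower. The signalling receptor gene Il1r1 was at 179.6 with vehicle and 3044 with TGZ, 16.9-fold higher (interval 12.8 to 22.4). The antagonist gene Il1rn was at 38.6 and 2413 (probe mean 5.14) and the decoy receptor gene Il1r2 at 542 with TGZ (probe mean 4.53), while the cytokine gene Il1b was at 52.4 and 80.7, 1.54-fold higher (1.16 to 2.05). So the receptor and both inhibitors of the pathway differed far more than the ligand gene Il1b. Of 20 genes of lipopolysaccharide sensing 7 were higher and none lower (median 0.55). Cd14 was at 85 with vehicle, 20933 with TGZ, 13291 with BSO plus TGZ, 202 with RGZ and 584 with BSO plus RGZ. The receptor gene Tlr4 itself was at 278 and 259, within measurement error, and its partner Ly96 was 1.19-fold higher (0.905 to 1.57). The adaptor gene Myd88 was 3.31-fold higher (2.51 to 4.37).

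Of 19 NF-kappaB subunits and regulators 9 were higher and 2 lower (median 0.51), and inhibitors stood on both sides. Tnip2, a partner of the deubiquitinase A20, was 6.87-fold higher (5.21 to 9.07), Nfkbib 3.68-fold (2.79 to 4.86), Tnfaip3, which encodes A20, 3.25-fold (2.46 to 4.31) and Nfkbia 2.84-fold (2.15 to 3.74). Nfkbie, another inhibitor, was 2.17-fold lower (1.64 to 2.89; -0.74 on the log2 scale with normexp). Of the subunits, Rela was 2.13-fold higher (1.61 to 2.81), below 2-fold with spike-in scaling, quantile normalization and normexp, and Nfkb1 1.43-fold (1.08 to 1.88). Of 9 regulators that destabilise or protect inflammatory mRNAs 7 were higher and none lower (median 1.47). Arid5a, which stabilises Il6 and Stat3 mRNA, was at 58.1 and 6955. The endonuclease gene Zc3h12a (regnase 1), which opposes it, was at 7.96 and 63.7, 7.99-fold higher (5.15 to 12.4; probe mean 1.8; 1.22 with normexp), and the decay factor gene Zfp36l2 4.46-fold (3.38 to 5.89). Of 30 TNF superfamily genes 8 were higher and 2 lower. Tnfrsf12a, the receptor of TWEAK, was at 146 and 3361, 22.9-fold higher (17.4 to 30.3), Tnfsf14 11.6-fold (7.28 to 18.4) and Tnfrsf1b 5.24-fold (3.96 to 6.93; probe mean 1.23). Tnf itself was at 70.3 and 66.1, within measurement error.

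Of 33 chemokine and chemokine receptor genes 13 were higher and 5 lower. Cxcl1, which attracts neutrophils, was at 383 with vehicle and 16939 with TGZ, and Ccrl2, a non-signalling chemerin receptor, was 6.33-fold higher (4.73 to 8.47). Cxcl12, which retains blood progenitors, was at 8648 and 2946, 2.94-fold lower (2.23 to 3.87). Neutrophil markers moved beside these lists: of 15 markers with a value 10 were higher, 5 of them as bounds, and none lower (median 2.09). The receptor gene of CXCL1, Cxcr2, was at 82.5 with TGZ and at least 14.8-fold higher, and the neutrophil collagenase gene Mmp8 was at 13.5 and 169, 12.5-fold higher (8.89 to 17.6). Ly6g was at 111 and 68.2 and Elane at 287 and 268, so not every marker was higher. In a bulk sample more cells of a type and more RNA per cell cannot be told apart, and the part of neutrophil RNA in the cytokine lists was not tested. Of 14 Kupffer cell and macrophage markers 1 was higher (7.14%, beside 10.1% over all genes) and none lower (median -0.3). Clec4f was at 1309 and 1186 and Timd4 at 30.7 and 15.6. Of 38 interferon response genes 1 was higher and 6 lower (median -0.18).

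**Figure D3:**
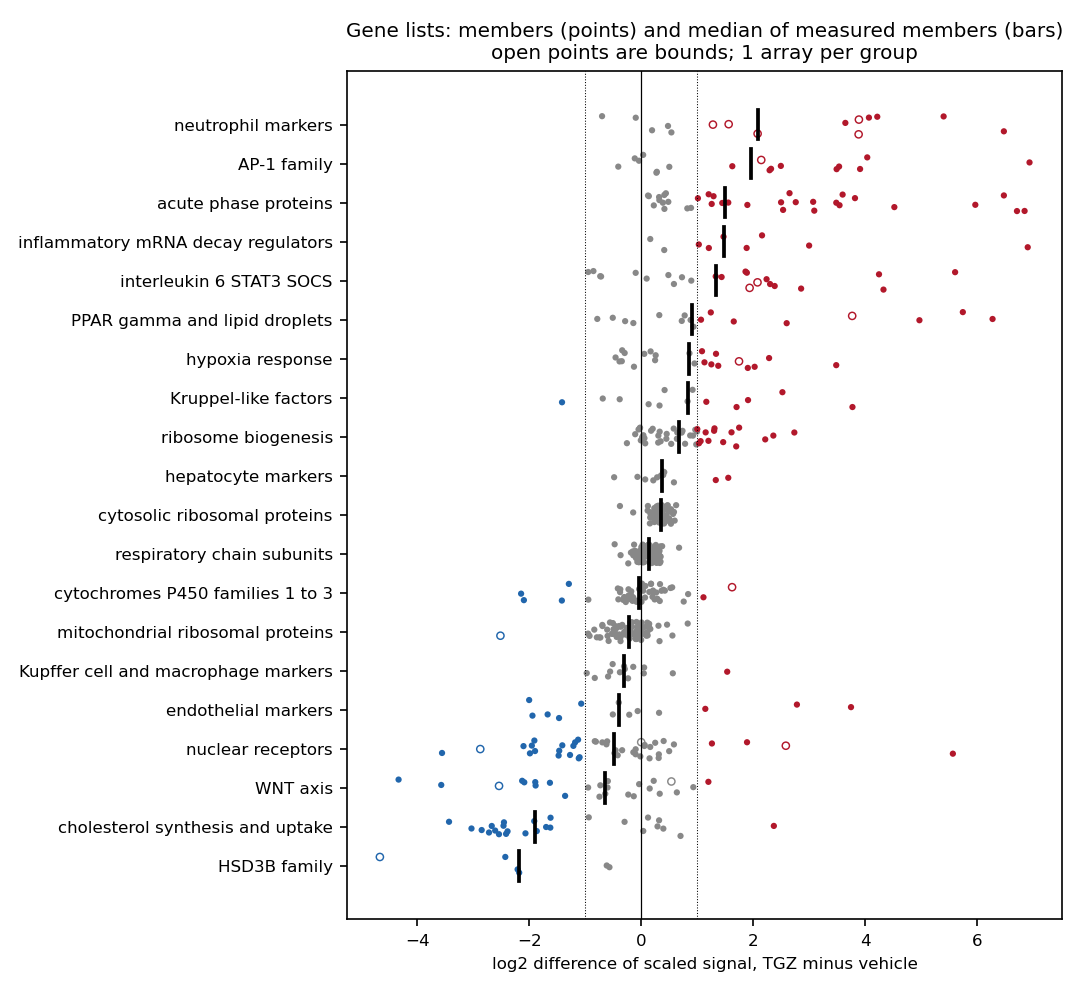
Differences on the log2 scale, TGZ minus vehicle, for members of 20 gene lists; each point is 1 gene, open where it is a bound, the black bar is the median of measured members and the dotted lines mark 2-fold. Neutrophil, AP-1 and acute phase lists lie mostly to the right (medians 2.09, 1.96 and 1.5), cholesterol and HSD3B lists to the left (medians -1.89 and -2.18), and ribosomal protein and respiratory chain lists within 2-fold.

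Among 34 acute phase genes 22 were higher and none was lower (median 1.5). The serine protease inhibitor gene Serpina3n was at 2364 with vehicle and 33332 with TGZ, 14.1-fold higher (interval 10.7 to 18.6). Hamp, which encodes the iron hormone hepcidin, was at 5859 and 65542, 11.2-fold higher (8.48 to 14.8), and at 35409 with RGZ. Iron genes around hepcidin went in several directions, with 4 of 19 higher and 3 lower. These are 21.1% and 15.8%, beside 10.1% and 9.48% over all genes. Hfe2 (hemojuvelin), the BMP co-receptor that drives hepcidin, was at 157 and 16.5, 9.54-fold lower (6.92 to 13.1). Slc40a1 (ferroportin), the exporter that hepcidin degrades, was at 2155 and 338, 6.37-fold lower (4.83 to 8.41), and the transferrin receptor gene Tfrc 3.04-fold lower (2.3 to 4.02). Slc39a14, which imports iron and zinc, was at 1605 and 20380.0, 12.7-fold higher (9.62 to 16.8). Of 23 metallothionein and zinc transporter genes 5 were higher and none lower, among them Mt1 at 6.16-fold (4.67 to 8.13; probe mean 3.62) and Mt2 at 8.92-fold (6.76 to 11.8).

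Of 32 coagulation and fibrinolysis genes 10 were higher and 2 lower (median 0.37). Those farther from 0 included genes of blood vessel surfaces. Thbd (thrombomodulin), which turns thrombin anticoagulant, was at 41.7 with vehicle and 666 with TGZ, 16-fold higher (interval 12.1 to 21.2), and at 32.8 with RGZ. Plaur, the urokinase receptor gene, was at 13.2 and 183, 13.9-fold higher (9.83 to 19.7), and Vwf (von Willebrand factor) 6.87-fold (5.21 to 9.07; probe mean 4.26). F3, the tissue factor gene, was 3.21-fold lower (2.38 to 4.33). Of 31 complement genes 2 were higher (6.45%, beside 10.1% over all genes) and none lower (median 0.04).

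Sinusoidal endothelial genes did not move as one. Of 13 endothelial markers 3 were higher and 5 lower (median -0.40). Lyve1, a hyaluronan receptor, was at 32.7 with vehicle, 439 with TGZ, 479.5 with BSO plus TGZ, 84.6 with RGZ and 108 with BSO plus RGZ. The VEGF receptor gene Kdr was 3.84-fold lower (2.91 to 5.07), the sinusoidal gene Oit3 3.18-fold (2.41 to 4.21) and the Fc receptor gene Fcgr2b 2.76-fold (2.09 to 3.66), while Cdh5 was 2.21-fold higher (1.68 to 2.92; below 2-fold with spike-in scaling and with normexp) and Stab2 1.32-fold lower (1 to 1.74). Of 29 collagen genes 6 were higher and 1 lower, led by the basement membrane gene Col4a1 at 107 and 893, 8.32-fold higher (6.3 to 11), with its head-to-head neighbour Col4a2 2.24-fold higher (1.7 to 2.96; likewise below 2-fold in both). Of 14 stellate cell and fibroblast markers 1 was higher and 1 lower (7.14% each, beside 10.1% and 9.48% over all genes). Hgf, the hepatocyte growth factor, was 2.79-fold higher (2.11 to 3.7). The retinol-storing enzyme gene Lrat was 4.62-fold lower (3.3 to 6.46, but -0.95 on the log2 scale with normexp). Of 10 bile duct markers 3 were higher and none lower, Sox9 at 13.4-fold (10 to 17.9; probe mean 2.99), Krt8 at 4.17-fold (3.17 to 5.51) and Krt18 at 2.35-fold (1.78 to 3.1; below 2-fold with spike-in scaling and with quantile normalization). Hepatocytes also express these keratins, and Krt19, which they do not normally express, was at 76.8 and 47.2, 1.63-fold lower (1.22 to 2.17).

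Genes of sterol synthesis were mostly lower, and fewer of those of fatty acid synthesis. SREBP proteins drive both pathways and are held in the endoplasmic reticulum by INSIG proteins when sterols are plentiful. Of 26 genes of cholesterol synthesis and uptake 17 were lower and 1 higher (median -1.89). The 1 higher gene was Insig2, at 3158 with vehicle and 16315 with TGZ, 5.17-fold higher (interval 3.92 to 6.82), while Insig1 was at 749.6 and 137, 5.47-fold lower (4.14 to 7.22). With RGZ Insig2 was at 3010.3 and Insig1 at 188. In fatty acid synthesis 7 of 20 genes were lower and 1 was higher (median -0.42), among them Acaca at 2.82-fold (2.14 to 3.72), Acly at 2.5-fold (1.89 to 3.29) and Elovl6 at 3.12-fold lower (2.36 to 4.12).

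Lipid droplet genes went the other way. Among 17 genes of lipid droplets and PPAR gamma 8 were higher and none lower (median 0.91), while Pparg was at 473 and 429, within measurement error. Adipocyte markers gave 3 of 7 higher and none lower, with Fabp4 at 385 and 2332 and Plin1 at 21.7 and 27.2, while Adipoq was below background on both arrays, and their part in these counts was not tested. Plin2 was 3.15-fold higher (2.38 to 4.15) and Plin5 2.37-fold (1.79 to 3.12), the latter below 2-fold with spike-in scaling. Pnpla2, which encodes the lipase ATGL, was at 1886 and 7671, 4.07-fold higher (3.08 to 5.37). Its inhibitor gene G0s2 was at 554 with vehicle and 269.5 with TGZ, 2.06-fold lower (1.56 to 2.71), and at 2936 with RGZ, so here TGZ was the lowest of the 5 arrays and RGZ among the highest. Lpin1, which makes diacylglycerol and coactivates PPAR alpha, was 4.94-fold higher (3.74 to 6.52). Of 16 LXR targets and sterol export genes 3 were higher and 2 lower (18.8% and 12.5%, beside 10.1% and 9.48% over all genes). Abca1, which exports cholesterol to apolipoprotein A1, was at 1011 and 4928, 4.87-fold higher (3.69 to 6.43), and Abcg1 was 2.11-fold lower (1.6 to 2.79; -0.88 on the log2 scale with normexp). Of 33 genes of fatty acid oxidation and PPAR alpha 6 were higher and 2 lower (median 0.20), with the classic mouse PPAR alpha targets Cyp4a10 and Cyp4a14 at 1.27-fold (0.961 to 1.67) and 1.39-fold (1.05 to 1.83) higher.

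Counts in the lists of glucose handling were small and are set beside 10.1% higher and 9.48% lower over all genes. Of 21 genes of the insulin response, FOXO1 and IGF binding 3 were higher and 3 lower (14.3% each, median 0.08). Of 22 glycogen genes 3 were higher and 2 lower (13.6% and 9.09%). For 17 gluconeogenesis genes the counts were 3 and 1 (17.6% and 5.88%), and for 27 glycolysis genes 6 and 2 (22.2% and 7.41%). Insulin lowers the FOXO1 targets Igfbp1, Irs2 and G6pc. With TGZ Igfbp1 and Irs2 were higher, whereas G6pc was lower (4632 with vehicle and 354 with TGZ). Igfbp1 was at 2996 with vehicle, 171907 with TGZ, 132890.4 with BSO plus TGZ, 913 with RGZ and 808 with BSO plus RGZ, so the RGZ arrays were below vehicle and the TGZ arrays far above it. Irs2 was at 575 and 5952, and Irs1 at 488 and 202, 2.42-fold lower (interval 1.83 to 3.19). Foxo1 was 2.39-fold higher (1.81 to 3.15), below 2-fold with spike-in scaling. Of the glycogen-targeting subunits of protein phosphatase 1, Ppp1r3g was at 136 and 4680.5, 34.3-fold higher (26 to 45.3), Ppp1r3c at 456 and 51.6, 8.85-fold lower (6.67 to 11.7), and Ppp1r3b at 13392 and 13569, within measurement error.

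The PFKFB enzymes set the level of fructose 2,6-bisphosphate, which speeds glycolysis. Pfkfb3 was at 136 with vehicle and 1515 with TGZ, 11.2-fold higher (interval 8.47 to 14.8), and the liver isoform gene Pfkfb1 at 922 and 190.1, 4.85-fold lower (3.68 to 6.41). The glucose transporter gene Slc2a1 was 4.07-fold higher (3.09 to 5.37) and the liver pyruvate kinase gene Pklr 3.63-fold lower (2.72 to 4.85). Of 22 hypoxia response genes, a list that shares Pfkfb3 and Slc2a1, 10 were higher and none was lower (median 0.86), with Hif1a among them at 4.87-fold (3.69 to 6.42), while Vegfa was at 728 and 818, within measurement error. G6pc, which releases glucose, was at 4632 and 354, whereas Pck1, the other main gluconeogenic enzyme gene, was at 18368 and 14734, 1.25-fold lower (0.945 to 1.65). The coactivator gene Ppargc1a was 5.37-fold higher (4.07 to 7.08) and the CREB family gene Crem 5.12-fold (3.88 to 6.76). Got1, the cytosolic aspartate aminotransferase, was at 8269, 57671 and 41439.8 with vehicle, TGZ and BSO plus TGZ, and at 3047 with RGZ, 6.97-fold higher with TGZ than with vehicle (5.29 to 9.2).

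**Figure D4:**
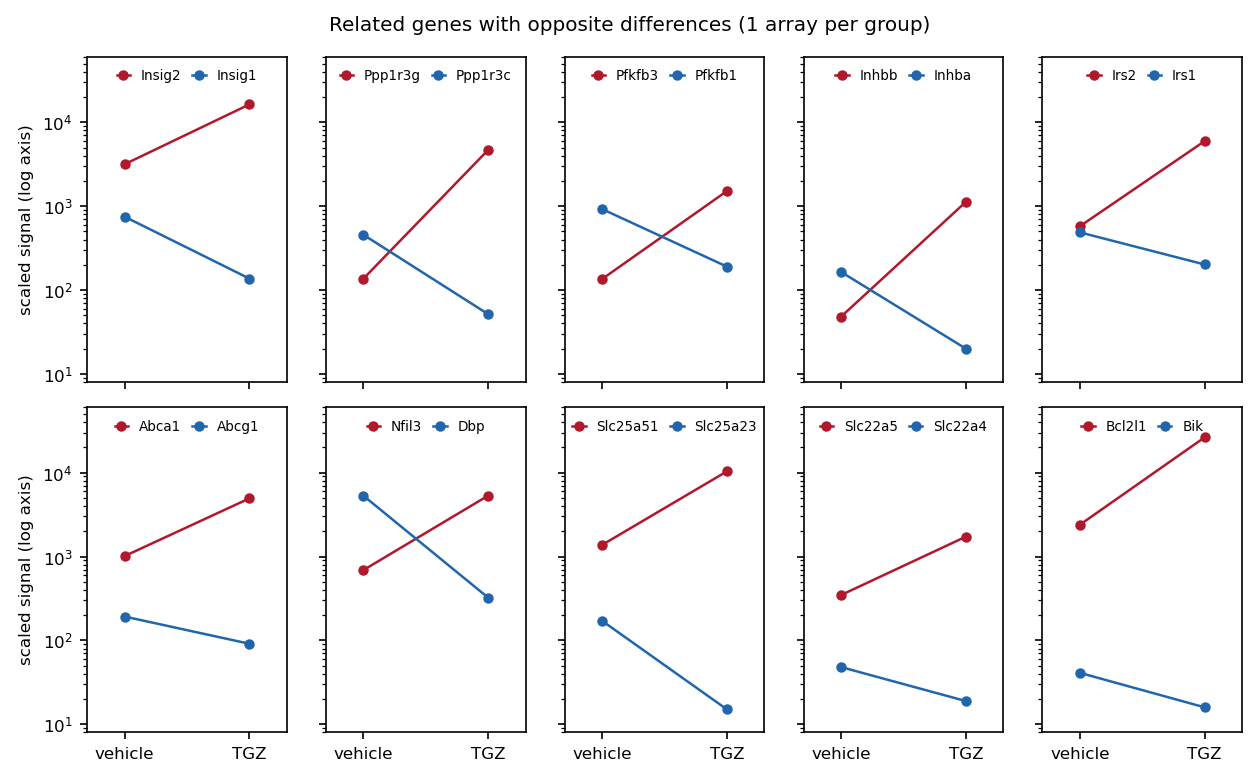
Scaled signal (log axis) on the vehicle and TGZ arrays for 10 pairs of related genes chosen after their values were seen, the higher one in red and the lower one in blue. Within each pair the lines run in opposite directions, as for Insig2 (5.17-fold higher) and Insig1 (5.47-fold lower); heights of different genes come from different probes and are not comparable.

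Ligands and receptors of development signalling also split. Activins are dimers of inhibin beta subunits, and follistatin neutralises them. Inhbb was at 48 with vehicle and 1122 with TGZ, 23.4-fold higher (interval 17.6 to 31), Inhba at 165 and 20.1, 8.22-fold lower (5.95 to 11.3), and the liver subunit gene Inhbe at 1013 and 440.0, 2.3-fold lower (1.75 to 3.04). Inhbe was at 2404 with RGZ and 3676 with BSO plus RGZ, above the vehicle array. In the list of 32 TGF beta, BMP and ID genes 8 were higher and 3 lower. The BMP target Id1 was 9.89-fold higher (7.48 to 13.1), Id2 2.96-fold (2.25 to 3.91) and Id3 2.75-fold (2.08 to 3.62), while Bmp2 was 2.97-fold lower (2.25 to 3.93).

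Of 25 genes of the WNT axis, which keeps the pericentral program of the lobule, 1 was higher and 9 lower (median -0.64), against 9.48% lower among all genes. Wnt5b was at 609.5 with vehicle and 30.2 with TGZ (probe mean -3.55) and Wnt4 at 66.3 and 15.6, 4.25-fold lower (interval 3 to 6.03; -0.81 on the log2 scale with normexp). The receptor and WNT target gene Lgr5 was at 108 and 9.07, 11.9-fold lower (7.7 to 18.3), and at 59.9 with RGZ. Other targets were lower as well: Tbx3 was 4.37-fold lower (3.31 to 5.76) and the receptor-removing ligase gene Rnf43 3.71-fold (2.81 to 4.9), and Axin2, not well above background with TGZ, at least 5.81-fold (probe mean -1.29; -0.71 with normexp). The related ligase gene Znrf3 was at 107 and 104, within measurement error. Enzymes of the pericentral zone did not move with them: Glul was 1.26-fold lower (0.958 to 1.67), Cyp2e1 1.26-fold higher (0.957 to 1.67) and Cyp1a2 1.18-fold lower (0.897 to 1.56). Over the list of 15 pericentral markers none was higher and 2 lower (median 0.02).

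Among 44 nuclear receptors 4 were higher and 16 lower (median -0.48). The bile acid receptor gene Nr1h4 (FXR) was at 2678 with vehicle and 963 with TGZ, 2.78-fold lower (interval 2.11 to 3.67), and Nr0b2, its target and a repressor of bile acid synthesis, at 184 and 15.6. The thyroid hormone receptor gene Thra was 3.72-fold lower (2.82 to 4.92), Nr2f2 3.75-fold (2.84 to 4.96) and the mineralocorticoid receptor gene Nr3c2 3.87-fold (2.92 to 5.13). Ppara was 1.34-fold lower (1.01 to 1.76). Of 21 liver-enriched factors 3 were higher and 5 lower: Cebpd was 5.29-fold higher (4.01 to 6.98) and Cebpb 4.69-fold (3.55 to 6.18), and Hnf4a 1.5-fold higher (1.14 to 1.98). Of 14 core clock genes 1 was higher and 3 lower (7.14% and 21.4%, beside 10.1% and 9.48% over all genes). Per1, which glucocorticoids and cyclic AMP also induce, was 2.72-fold higher (2.06 to 3.59), below 2-fold with spike-in scaling, whereas Per2 was at 405 and 75.3, 5.38-fold lower (4.07 to 7.12; probe mean -1.49), and Per3 at least 14.9-fold lower (probe mean -2.97). Nr1d1 was at 108 and 101, and Arntl at 38.6 and 41.4, both within measurement error.

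Of 16 BCL2 family genes with a value 4 were higher and 3 lower (median 0.22). Bcl2l1, which encodes the survival protein BCL-xL, was at 2386 with vehicle and 26297 with TGZ, 11-fold higher (interval 8.35 to 14.5), with 5 probes on 1 side of 0, and at 1873 with RGZ. Mcl1 was 2.92-fold higher (2.21 to 3.85). Of the promoters of death, Bcl2l11 (BIM) was 5.69-fold higher (4.31 to 7.52), Bbc3 (PUMA) 2.18-fold lower (1.65 to 2.88), and Bax at 915 and 932, within measurement error. Among 25 genes of p53 and DNA damage 7 were higher and 1 was lower. Plk3 was 6.42-fold higher (4.87 to 8.47) and Gadd45a 10.7-fold (8.06 to 14.1), while the p53 targets Mdm2 and Ccng1 were 1.67-fold higher (1.26 to 2.2) and 1.39-fold lower (1.05 to 1.85). Gadd45b, also a target of NF-kappaB, was at 224 and 6986, 31.2-fold higher (23.6 to 41.1).

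Genes that build ribosomes differed more than those of the ribosome itself. Of 44 ribosome biogenesis factors 14 were higher and none lower (median 0.68), with Heatr1, needed for transcription and processing of ribosomal RNA, at 817 and 5437, 6.66-fold higher (interval 5.05 to 8.79; probe mean 2.12), and Nop58, of the box C/D particles, 5.13-fold (3.89 to 6.77). Of 81 cytosolic ribosomal proteins none passed 2-fold, and 79 were above 0 (median 0.35), where spike-in scaling puts the median below 0. Of 78 mitochondrial ribosomal proteins none was higher and 1 lower, and of 77 measured ones 59 were below 0 (median -0.21). Of 53 translation initiation factors 8 were higher and none lower, with Eif1a at 4.03-fold (3.05 to 5.31) and the cap-binding inhibitor gene Eif4ebp1 at 3.48-fold (2.64 to 4.6). Of 55 histone genes 2 were higher and 10 lower. Hist2h2be was 11-fold lower (7.9 to 15.4) and Hist1h1c 2.85-fold (2.16 to 3.77; -0.87 on the log2 scale as the mean of its probes), while the replication-independent gene H3f3b was 5.54-fold higher (4.2 to 7.31). None of 81 respiratory chain subunits and none of 20 aminoacyl tRNA synthetases passed 2-fold.

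Stress genes of the cytosol and the endoplasmic reticulum were mixed. In the integrated stress response 10 of 24 genes were higher and none was lower (median 0.51). Atf4 was 2.8-fold higher (interval 2.12 to 3.7). Ddit3, which encodes the death-linked factor CHOP, was at 48 and 68.2 by its brightest probe (1.42-fold, 1.06 to 1.89), and at 105 with RGZ. The measured probes of Ddit3 ran from 0.51 to 1.26 on the log2 scale, so whether it passed 2-fold depends on the probe. Asns (asparagine synthetase) was 5.29-fold higher (3.81 to 7.36), and Psat1, of serine synthesis, 4.91-fold (3.47 to 6.95). Of 24 heat shock genes 4 were higher and 5 lower (16.7% and 20.8%, beside 10.1% and 9.48% over all genes). Hspb8 was 3.79-fold higher (2.88 to 5.01), its partner Bag3 3.43-fold (2.6 to 4.53) and Hsf2 3.66-fold lower (2.77 to 4.84). Of 12 polyamine genes 3 were higher and 2 lower (25% and 16.7%). Sat1, which acetylates spermidine and spermine for breakdown, was at 563 and 4672, 8.3-fold higher (6.29 to 10.9). The spermine oxidase gene Smox was 4.29-fold higher (3.23 to 5.69).

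Drug-metabolising genes were mostly within 2-fold, as were genes in general. Of 52 cytochromes P450 of families 1 to 3, the main drug oxidases, 2 were higher and 4 lower (median -0.04). These are 3.85% and 7.69%, beside 10.1% and 9.48% over all genes. Cyp3a11, a target of the receptor PXR, was at 9142 with vehicle and 8624 with TGZ, within measurement error. Cyp2b10, a target of CAR, was 1.47-fold higher by its brightest probe (interval 1.11 to 1.94). Its measured probes ran from 0.55 to 1.13 on the log2 scale, so whether it passed 2-fold depends on the probe. Of 31 glucuronosyl and sulfotransferases 1 was higher and 4 lower (3.23% and 12.9%). The estrogen sulfotransferase gene Sult1e1 was at 34.2 and 297, 8.68-fold higher (6.52 to 11.5). Ugt1a6a was 4.93-fold lower (3.43 to 7.11, but -0.85 on the log2 scale with normexp). Among 43 mitochondrial carriers 8 were higher and 5 lower (18.6% and 11.6%, beside 10.1% and 9.48% over all genes), with a median of 0.03. The mitochondrial NAD carrier gene Slc25a51 was 7.53-fold higher (5.71 to 9.94). The ATP-Mg carrier gene Slc25a23 was 11.4-fold lower (8.06 to 16), with a probe mean of -1.61. The 3 probes of Slc25a23 ran from -3.51 to -0.23 on the log2 scale, so the size of its difference depends on the probe. Of 42 amino acid transporters 6 were higher and 4 lower (14.3% and 9.52%, near the shares over all genes). Slc38a2, which takes up neutral amino acids, was 6.79-fold higher (5.14 to 8.95; probe mean 1.56), and the arginine carrier gene Slc7a1 4.09-fold (3.08 to 5.42).

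Gene families that lie side by side were read from the RefSeq order of genes. Of 176 runs of at least 3 neighbouring protein-coding genes with values and one symbol stem, 77 had no gene past 2-fold and 11 had 3 or more genes past 2-fold in 1 direction. The runs held 826 genes with a value, of which 84 were higher and 84 lower, 10.2% each, beside 10.1% higher and 9.48% lower over all genes. The families below are examples from these runs. On chromosome 4 all 3 orosomucoid genes were higher, Orm1 at 5.65-fold (interval 4.28 to 7.45), Orm3 at 6.78-fold (5.13 to 8.94; probe mean 2.16) and Orm2 at 5.79-fold (4.39 to 7.64). On chromosome 15, 5 of 6 apolipoprotein L genes with a value were lower, 4 of them from 4.88-fold for Apol9a to 16.9-fold for Apol7a and Apol10a at least 2.31-fold (-0.18 on the log2 scale with normexp), while Apol7b was 1.19-fold lower (0.903 to 1.57). On chromosome 3, 4 of 5 steroid dehydrogenase genes of the Hsd3b run were lower, and on chromosome 1, 3 of 4 flavin monooxygenase genes, with Fmo2 4.79-fold lower (3.62 to 6.33).

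Other runs held both behaviours. On chromosome 7 the serum amyloid genes Saa1, Saa2 and Saa3 were higher and their neighbour Saa4 was at 3259 and 3582, within measurement error. Saa3 was at 264 with vehicle, 2249 with TGZ, 7269 with BSO plus TGZ, 10703 with RGZ and 61477 with BSO plus RGZ, so TGZ was the lowest of the 4 treated arrays. On chromosome 12 Serpina3f, Serpina3g, Serpina3i and Serpina3n were 8.41-fold to 14.1-fold higher (probe mean of Serpina3i 4.47), and Serpina3k and Serpina3m between them 1.25-fold (0.949 to 1.65) and 1.36-fold (1.03 to 1.79). On chromosome 11 the carnitine transporter genes Slc22a5 and Slc22a21 were 4.96-fold and 4.42-fold higher and the adjoining Slc22a4 2.54-fold lower (1.84 to 3.5; -0.56 on the log2 scale with normexp). Probes of close paralogs can share sequence, so members of these families may not be measured separately.

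**Figure D5:**
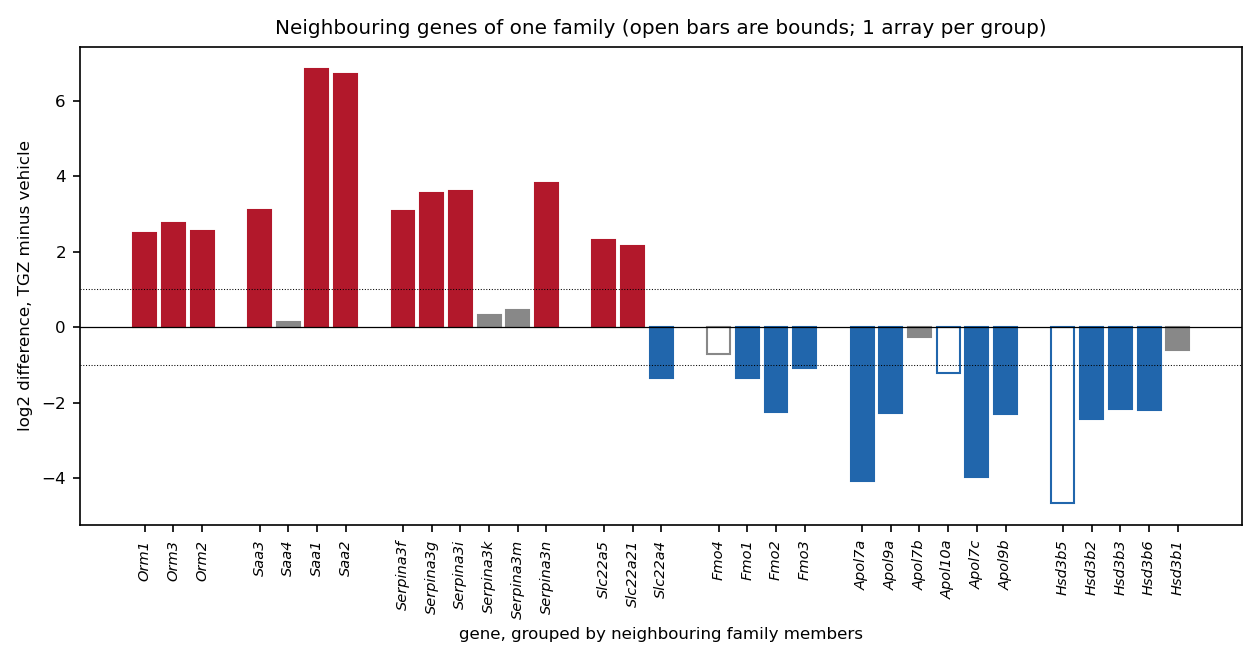
Differences on the log2 scale, TGZ minus vehicle, for neighbouring genes of 7 families, 1 bar per gene, open where it is a bound; dotted lines mark 2-fold. Members of the Orm run lie on 1 side, whereas Saa4, Serpina3k, Serpina3m and Apol7b stay within 2-fold beside neighbours that do not, and Slc22a4 is opposite to its neighbours.

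Troglitazone and rosiglitazone share the thiazolidinedione ring and differ in the group at the other end, which in troglitazone is the chroman ring of vitamin E and in rosiglitazone an aminopyridine. Their arrays were compared directly at the same dose and time, without a test since each was 1 array. Of 21515 genes with a value 1984 (9.22%) were at least 2-fold higher with TGZ than with RGZ and 1808 (8.4%) at least 2-fold lower. Igfbp1 was 188-fold higher with TGZ than with RGZ (interval 143 to 249), Pdk4, the kinase that inhibits pyruvate dehydrogenase, 76-fold (57.5 to 100.4), Ppp1r3g 70.8-fold (53.5 to 93.7) and Hilpda 56.2-fold (42.5 to 74.3). Of 34 acute phase genes with a value 7 were at least 2-fold higher with TGZ than with RGZ and 4 lower (median 0.45). Saa1, past the brightest spike-in RNA on both arrays, was 1.35-fold higher (1.02 to 1.78), and the intervals of Orm1 (0.973 to 1.69) and Lbp (0.771 to 1.34) include no difference. Serpina3n was 2.95-fold higher (2.24 to 3.9), while Saa3 was 4.76-fold lower (3.61 to 6.28), Saa4 2.79-fold (2.11 to 3.68) and Orm3 2.23-fold (1.69 to 2.94). Some genes were higher with RGZ: G0s2 was 10.9-fold lower with TGZ than with RGZ (8.26 to 14.4), Inhbe 5.46-fold (4.14 to 7.21) and the hepatokine gene Fgf21 1.79-fold (1.36 to 2.37).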

How the data were processed

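RNA pooled from the livers of 6 animals per group was hybridised to 5 Agilent 1-colour arrays on 1 slide. The deposited scanner files hold processed intensity, background-subtracted by Agilent Feature Extraction 12.0.3.1, with probe positions on mm9, per the file headers. A table of log2 values was also deposited, which matched the scanner's log2 processed signal plus 1 constant per array. Here the log2 processed signal minus each array's 75th percentile over non-control probes was used, with the probe of highest mean over the 5 arrays for each gene name. Python 3.11.15, pandas 2.3.3 and limma 3.58.1 (normexp, offset 50) were used. With 1 array per group no test was run. A call was a 2-fold difference, and intervals came from the scanner's error per spot. The members and the 96 gene lists were chosen with earlier results of these data known. Named genes were taken from the 25 largest measured differences and 10 largest bounds per direction, from list members farthest from 0 or defining a pathway, and from neighbour runs. The calling step was tested on simulated data. Gene names were matched to RefSeq GRCm38.p6 for symbols, neighbours and promoters. No RefSeq entry was used to place an array probe, since the builds differ. Some genes of the comparison are not reported here.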

Additional observations from a re-analysis of the deposited data

How the results depend on the processing

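Alternatives were other scalings, background correction, filters and probe choices. The counts of genes at least 2-fold higher and lower (2147 and 2020) became 1201 and 4287 with spike-in scaling, 1097 and 906 with normexp background correction and offset 50, and 3682 and 3206 with no filter on dim probes. At 4-fold, 646 and 434 became 395 and 856, 297 and 147, and 1023 and 758 under the same alternatives, in that order. Of all calls 51.5% were higher, against 21.9% with spike-in scaling, which rests on 8 spike-in probes and moves the median gene by -0.46 on the log2 scale. Normexp adds an offset, which by its construction shrinks differences of dim genes, and dropping the filter adds genes at background on both arrays. Under median scaling, quantile normalization, both probe rules, both stricter filters and the deposited table these 4 counts stayed within 1.5 times. The median of the clock output factors was -0.84 over 7 measured genes and 0.05 on the log2 scale with no filter. Without the filter the median also takes in the 1 gene that is otherwise a bound. Of the 212 named genes past 2-fold, 201 stayed past it in the same direction with spike-in scaling, 194 with normexp, 210 each with the mean over probes and with quantile normalization, and 211 with the probe brightest on these 2 arrays. Under the stricter filters all named genes that kept a value (195 and 194) stayed. The value moved by more than 1.5 times for 75 of the 212 with normexp, 27 with the mean over probes and 9 with no filter. No paired analysis was possible because each group had 1 array. Dim genes have the widest intervals, and for a gene below background on 1 array the size is only a bound.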

Other observations

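Of 16 genes of the glucocorticoid receptor and its targets 8 were higher with TGZ and 2 lower (median 1.15), and known targets were on both sides. Fkbp5, which holds the receptor in a low-affinity state, was at 1382 with vehicle and 4441 with TGZ, 3.21-fold higher (interval 2.44 to 4.24). The zinc finger gene Zbtb16 was 5.84-fold higher (4.43 to 7.71) and Tat, the tyrosine aminotransferase gene, 2.52-fold (1.91 to 3.32; 0.88 on the log2 scale with spike-in scaling). Tsc22d3 (GILZ), another induced target, was at 5202 and 564, lower with TGZ. Of 23 genes of bile acid handling none was higher and 8 lower (median -0.41). Beside the bound of at least 63.1-fold lower for Cyp7a1 (probe mean -4.49), Cyp8b1, which sets the share of cholic acid, was 2.17-fold lower (1.64 to 2.86; just under 2-fold with normexp) and Klb, the co-receptor of FGF15, 2.05-fold (1.55 to 2.7; -0.88 on the log2 scale with normexp).

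Of 39 autophagy and lysosome genes 7 were higher and 1 lower (median 0.26), among them Ulk1, the kinase that starts autophagy, at 2.75-fold (2.08 to 3.63) and Map1lc3b at 2.72-fold (2.06 to 3.59; 0.99 on the log2 scale with spike-in scaling). Of 48 RAB GTPases with a value 5 were higher and 6 lower, 10.4% and 12.5% beside 10.1% and 9.48% over all genes. Beside Rab30, Rab20 was 6.87-fold higher (5.13 to 9.19), and Rab3a and Rab3d, which act in regulated secretion, were 5.5-fold (4.12 to 7.34) and 3.97-fold (2.81 to 5.6; -0.82 on the log2 scale with normexp) lower. Of 24 amino acid breakdown genes 6 were higher and 5 lower. Aass, of lysine breakdown, was 4.31-fold higher (3.27 to 5.69) and Agxt, of glyoxylate removal, 3.65-fold (2.77 to 4.82), while Hal, which opens histidine breakdown, was 3.72-fold lower (2.82 to 4.91). Of 8 B and plasma cell markers none was higher and 2 lower, Cd79b at 3.21-fold (2.34 to 4.4; -0.74 on the log2 scale with normexp) and Blnk at 3.4-fold (2.55 to 4.53).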
